A study of Arabidopsis thaliana with 4 samples.

Results

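The factors described here are nucleolar proteins that process precursor ribosomal RNA and assemble ribosomal subunits, and their transcripts were compared between chilled and warm seeds of Arabidopsis thaliana. The list was drawn up by locus from pre-rRNA processing and ribosome assembly factors, and the rule uses no threshold on a measured value, but the loci were chosen with earlier results of these data known. The shares of factors called below are therefore descriptions and no independent evidence of a direction. Of 55 listed loci, 36 were paired with a probe set that the platform annotation assigns to 1 gene. These are 36 of 13286 genes with such a probe set on the array. The measured genes comprise 5 core proteins of small nucleolar ribonucleoproteins (snoRNPs), 15 small-subunit factors, 13 large-subunit factors and 3 factors that act on both.

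Seeds of the Ler-0 accession were incubated in the dark at either 22 °C or 4 °C for 96 h, and total RNA of 2 samples per temperature was hybridised to 1 array each. The arrays are named by temperature and by the letter of their title, A or B, and paired signals are given in that order, with warm for 22 °C and chilled for 4 °C. The labels name no mutation, transgene or added agent in either group, and the stage of every sample is given as dry seeds even though an incubation is described. No sample from before the incubation or from another time was measured, so the values compare temperatures and show no change over time. Whether A and B were separate lots of seed is not stated, so p-values here reflect only how far these samples differ, possibly for technical reasons.

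In background, a ribosome begins in the nucleolus, where RNA polymerase I transcribes a long precursor RNA. Small nucleolar RNAs of the box C/D and box H/ACA kinds, each bound by its own core proteins, guide 2′-O-methylation and pseudouridylation of that RNA. A large complex built around the U3 snoRNA, the small-subunit processome, folds and cleaves the part that becomes the small subunit, while other sets of assembly factors, helicases and GTPases mature the large subunit. In plants, genes for such factors are known to be expressed most in growing tissue. The roles given below for loci without a symbol are those of the homologues in budding yeast or human, and they are background rather than results.

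Transcripts of these factors had higher signals in the seeds kept at 4 °C. Each array was scaled to the same trimmed mean, so signals are relative to the rest of the array and give no amount per seed. In the limma test across all probe sets, 22 of the 34 factors tested passed an adjusted p of 0.05 and were higher at 4 °C, which is 64.7%, against 2.71% of all 15847 probe sets tested. None passed in the lower direction, against 2.34% of all probe sets, and none had an unadjusted p under 0.05 in that direction (0 of 34, against 14% of all probe sets). In the higher direction 32 of 34 did, against 11.6%. The median log2 fold change of the 34 was 2.53, with a range from 0.94 to 3.95, whereas the median over all probe sets was -0.13. Fold changes are 4 °C minus 22 °C on the scale of log2(signal + 32), which understates changes of low signals. Below, rose and fell are used for genes that passed this test as higher or lower at 4 °C than at 22 °C.

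Both 4 °C arrays lay above both 22 °C arrays for all 34 factors tested, against 25.7% of all probe sets, although with quantile normalization AT1G50920 overlapped and 33 of 34 were left. For 27 of the 34 the lower 4 °C signal was at least 2-fold above the higher 22 °C signal, against 8.17% of all probe sets. That ratio ran from 1.02, for AT1G50920, to 12, for AT1G52930, with a median of 4.07. For 27 factors it exceeded the widest ratio between the arrays of 1 temperature. The share of all probe sets for this last count was not computed, so whether it is unusual was not tested. By the size of the log2 fold change, 9 of the 34 stood among the highest 100 probe sets and 31 among the highest 1000.

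The 34 tested factors passed the filter on low signal, a mean of at least 64, from their 22 °C signals as well, since the lowest 22 °C signal among them was 100.6. The other 2 measured factors, AT5G08600 and AT2G27750, lay below it and took no part in the test. The remaining 19 loci had no single-gene probe set and were not analysed here. They include the fibrillarin genes FIB1 and FIB2, the nucleolin genes NUC-L1 and NUC-L2, the pseudouridine synthase gene NAP57, and NOP10, NOP56, TOZ, PWP2, SWA1, EDA7, OLI2, PPAN, MEE49, AtNug2, NSN1, eIF6A, AT5G27120 and AT1G31660.

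**Figure D1:**
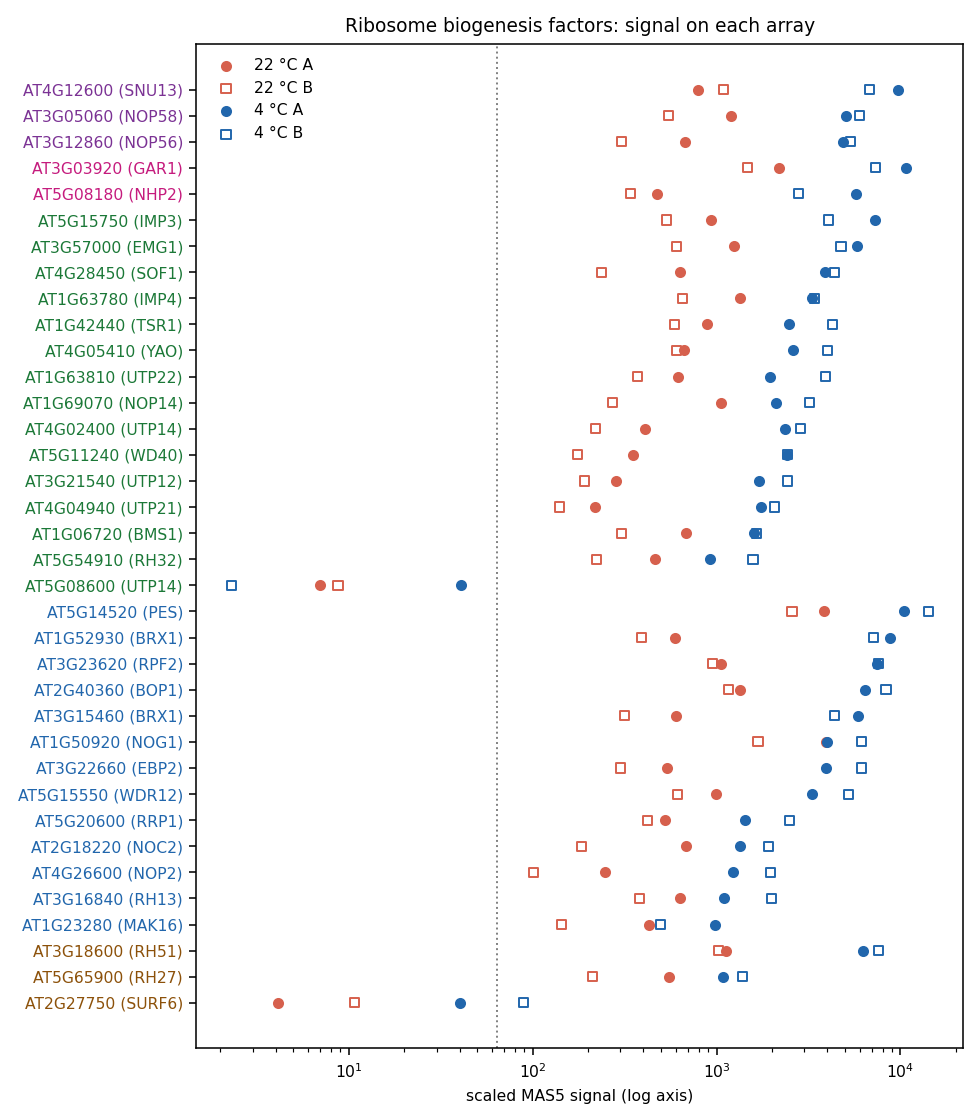
Scaled MAS5 signal (log axis) of the 36 measured factors on each of the 4 arrays, with 22 °C in red, 4 °C in blue, array A as filled circles and array B as open squares. Label colours mark box C/D core, box H/ACA core, small-subunit, large-subunit and shared factors from top to bottom, and the names in brackets are gene symbols, names of yeast or human homologues, plant helicase names (RH) or a domain (WD40). All 34 factors whose mean signal reached the dotted line at 64 have both 4 °C signals above both 22 °C signals.

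Depth does not apply to arrays, and their number limits the precision. All 4 arrays had a deposited 2% trimmed mean of 100, and their deposited medians ran from 27.1 to 40.8, with the highest on 22 °C B. As a check of the tissue, the oleosin gene AT3G01570, whose product coats seed oil bodies, gave 12746 (A) and 15419 (B) when warm and 13059 (A) and 11126 (B) when chilled. The oleosin gene OLEO3 gave 1305 and 1838 when warm and 348.2 and 658.2 when chilled, a log2 fold change of -1.63 (unadjusted p = 0.0141, adjusted p = 0.103). The cruciferin-like storage protein gene AT1G03890 gave 1049 and 879.8 against 403.6 and 747.8 (-0.77, adjusted p = 0.379), and AT3G01570 stood at -0.22 (adjusted p = 0.77). So all 3 measured storage and oleosin genes, of 15 listed, had negative values beside the positive ones of the factors, and 0 of 3 passed the limma test. Over all probe sets 44.7% of log2 fold changes lay above 0, and the quartiles were -0.82 and 0.54. The part of these 3 genes in the results was not tested. Of the seed coat genes DFR had signals between 72.5 and 86.2 and BAN between 4.5 and 24.4 on the 4 arrays, and no endosperm marker on the list was measured. The arrays hold whole seeds, so fewer cells of a type and less RNA per cell cannot be told apart.

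Transcripts of the 5 measured core proteins of the snoRNPs were all higher at 4 °C. Of the listed core loci, 3 of 7 for box C/D and 2 of 4 for box H/ACA were measured. All 5 measured members passed the limma test as higher, against 2.71% of all probe sets, with a median log2 fold change of 3.09. Of the box C/D proteins, which bind the RNAs that guide methylation, AT3G12860 encodes a homologue of yeast Nop56. Its signals were 676.8 (A) and 305.1 (B) at 22 °C and 4857 (A) and 5365 (B) at 4 °C. The chilled arrays differed little and the warm ones by over 2-fold, with a wide gap between the temperatures, and the transcript rose by 3.39 ± 0.525 on the log2 scale (SE, n = 2 per temperature; limma adjusted p = 0.0317).

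AT3G05060, a homologue of Nop58, which pairs with Nop56 in the same particle, had 1202 (A) and 547.8 (B) at 22 °C and 5066 (A) and 5990 (B) at 4 °C. AT4G12600 encodes a homologue of Snu13, the protein that recognises the kink-turn of box C/D RNAs and also binds the U4 spliceosomal RNA. It had 792.8 and 1093 on the warm arrays and 9740 and 6808 on the chilled ones. Among the 34 factors it alone was higher on the warm array B than on A. The log2 fold changes of these genes were 2.71 ± 0.526 (adjusted p = 0.0383) and 3.09 ± 0.468 (adjusted p = 0.0317).

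Of the box H/ACA proteins, which serve the RNAs that guide pseudouridylation, AT5G08180 is a homologue of Nhp2 and AT3G03920 of Gar1. AT5G08180 had 472.5 (A) and 342.2 (B) at 22 °C and 5744 (A) and 2805 (B) at 4 °C. AT3G03920 had 2178 and 1469 against 10749 and 7312. In both genes each array B was below array A of its temperature, while the temperatures stayed apart. They rose by 3.22 ± 0.531 (limma adjusted p = 0.0337) and 2.29 ± 0.468 (adjusted p = 0.0419).

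Small-subunit factors were measured at 15 genes, of which 14 were tested. Of these, 9 passed the limma test as higher at 4 °C, against 2.71% of all probe sets. The 14 had a median log2 fold change of 2.50 and a range of 1.75 to 3.30. The largest change belonged to AT4G28450, a homologue of yeast Sof1, a WD40 repeat protein of the U3 processome. It had 631.1 (A) and 237.2 (B) at 22 °C and 3897 (A) and 4375 (B) at 4 °C, a change of 3.30 ± 0.56 in log2 (SE; limma adjusted p = 0.0349). Its lower chilled signal was 6.17 times its higher warm one.

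Other WD40 repeat genes of the processome also rose, and differences between them were not tested. AT4G04940, a homologue of Utp21, had 218 (A) and 139.5 (B) at 22 °C and 1737 (A) and 2075 (B) at 4 °C (log2 fold change 3.22, adjusted p = 0.0317). AT3G21540, a homologue of Utp12, had 284.8 and 191.2 against 1697 and 2434 (2.96, adjusted p = 0.0332). For AT5G11240, a further WD40 repeat gene, the signals were 352 and 174.8 against 2407 and 2431 (3.12, adjusted p = 0.0328). YAO (AT4G05410), known in Arabidopsis for embryo sac and embryo development, encodes a homologue of Rrp9, a protein of the U3 particle itself. Its warm signals of 665.6 and 607.7 lay close together, as against 2607 and 4027 at 4 °C, and it rose by 2.29 ± 0.475 (adjusted p = 0.0425).

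Of the measured proteins that escort the U3 particle, AT5G15750 and IMP4 (AT1G63780) are the counterparts of yeast Imp3 and Imp4, which promote pairing of U3 with the precursor RNA. AT5G15750 had 931.5 (A) and 535.7 (B) at 22 °C and 7284 (A) and 4049 (B) at 4 °C, and rose by 2.89 ± 0.53 (limma adjusted p = 0.0375). IMP4 had 1344 and 653 against 3322 and 3401, a log2 fold change of 1.81 ± 0.514 that did not pass (adjusted p = 0.0812). The temperatures did not overlap for either gene. Whether these partners differ from each other in their response was not tested.

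The homologues of the processome protein Utp14 lay on either side of the filter. AT4G02400 had 408.3 (A) and 219.8 (B) at 22 °C and 2349 (A) and 2848 (B) at 4 °C, and rose by 2.98 ± 0.497 (adjusted p = 0.0341). The other copy, AT5G08600, gave 6.99 and 8.73 when warm, then 41 and 2.3 when chilled, all under the filter. AT1G63810, a homologue of Utp22, rose by 2.45 ± 0.544 (adjusted p = 0.0481), with 614.4 and 370.2 when warm against 1941 and 3896 when chilled. AT3G57000, a homologue of the pseudouridine methyltransferase Emg1, rose by 2.55 ± 0.515 (adjusted p = 0.0414), with 1244 and 605.7 against 5769 and 4748.

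The other 5 small-subunit factors tested did not pass, and in each of them both 4 °C signals were above both 22 °C signals. They were the GTPase gene AT1G06720 (Bms1 in yeast), the related AT1G42440 (Tsr1), AT1G69070 (Nop14), the DEAD-box helicase gene AT5G54910 (Dbp4) and IMP4. AT1G42440 had 888.7 (A) and 590 (B) at 22 °C and 2465 (A) and 4253 (B) at 4 °C (2.11 in log2, limma adjusted p = 0.0566). With all 4 arrays it passed under a filter at 200, median centring, the deposited scale and the letter as a replicate block. It did not pass under the other alternatives that kept all 4 arrays. AT1G06720 had 681.1 and 305.6 against 1596 and 1645 (1.75, adjusted p = 0.0917), and AT5G54910 had 462.2 and 222.4 against 922.7 and 1579 (1.81, adjusted p = 0.0912). AT1G69070 had 1053 and 272.4 against 2097 and 3204, the widest warm difference among the 34 factors. Its log2 fold change of 2.19 (adjusted p = 0.0952) was 1.27 without 22 °C B.

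Large-subunit factors spread more widely, with log2 fold changes from 0.94 to 3.95 over 13 genes and a median of 2.36. Of the 13, 7 passed the limma test as higher at 4 °C, against 2.71% of all probe sets. AT1G52930 had the largest change of all factors. It encodes a Brix domain protein related to yeast Brx1, which acts early in large-subunit assembly. Its signals were 597 (A) and 389.4 (B) at 22 °C and 8820 (A) and 7154 (B) at 4 °C, a change of 3.95 ± 0.473 in log2 (SE; limma adjusted p = 0.0279), the 18th highest among all probe sets tested. The lower chilled signal was 12 times the higher warm one.

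The second Brx1 homologue, AT3G15460, also rose, and the difference between the copies was not tested. It had 602.4 (A) and 315.4 (B) at 22 °C and 5847 (A) and 4397 (B) at 4 °C, a log2 fold change of 3.44 ± 0.51 (adjusted p = 0.0317). In both genes array B was below array A at both temperatures. AT3G23620, which encodes another Brix domain protein, the homologue of Rpf2 that brings the 5S particle into the large subunit, had 1060 and 952.1 against 7444 and 7605. Its replicates lay closer together than those of any other factor tested (widest ratio 1.11), and it rose by 2.87 ± 0.436 (adjusted p = 0.0317).

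The PeBoW complex, of Pescadillo, Bop1 and WDR12, is needed for processing of the large-subunit RNA. The Bop1 gene AT2G40360 had 1341 (A) and 1155 (B) at 22 °C and 6381 (A) and 8349 (B) at 4 °C, and rose by 2.52 ± 0.446 (limma adjusted p = 0.0357). The WDR12 gene AT5G15550 had 997.9 and 615.8 against 3311 and 5201, and rose by 2.36 ± 0.504 (adjusted p = 0.0453). PES (AT5G14520), the Pescadillo gene, had 3822 and 2573 against 10415 and 14179. Its log2 fold change of 1.94 ± 0.445 did not pass (adjusted p = 0.0511), and it passed under 7 of 14 alternatives. All of the 3 genes of the complex were separated by temperature, by at least 2.73-fold between the nearest arrays.

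AT3G22660, the homologue of Ebp2, an early large-subunit factor, had 536.1 (A) and 299.4 (B) at 22 °C and 3943 (A) and 6125 (B) at 4 °C. It rose by 3.51 ± 0.515 (adjusted p = 0.0317). AT4G26600 encodes a homologue of the RNA methyltransferase Nop2, and had 248.5 and 100.6 against 1236 and 1975, a log2 fold change of 3.05 ± 0.543 (adjusted p = 0.0357). For the latter gene the lower chilled signal was 4.97 times the higher warm one.

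The 5 large-subunit factors besides PES that did not pass were homologues of Nog1, Mak16, Noc2, Mak5 and Rrp1. AT1G50920, a homologue of the GTPase Nog1, had 3927 (A) and 1679 (B) at 22 °C and 3994 (A) and 6152 (B) at 4 °C (0.94 ± 0.551 in log2, limma adjusted p = 0.334). Here 22 °C A and 4 °C A were nearly equal, and leaving out 22 °C B gave 0.33, leaving out 22 °C A 1.54. AT1G23280, a homologue of Mak16, had 429.5 and 142.7 against 979.7 and 492.8 (1.36 ± 0.61, adjusted p = 0.214). It was 0.66 without 22 °C B, 2.06 without 22 °C A and 0.89 without 4 °C A.

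AT2G18220, a homologue of Noc2, had 684.9 (A) and 184.4 (B) at 22 °C and 1341 (A) and 1909 (B) at 4 °C, a change of 2.05 in log2 (limma adjusted p = 0.101) that was 1.19 without 22 °C B. The DEAD-box helicase gene AT3G16840, related to yeast Mak5, had 630 and 380.6 against 1101 and 1993 (1.53, adjusted p = 0.122). AT5G20600, a homologue of Rrp1, had 524.3 and 421 against 1428 and 2487 (1.93, adjusted p = 0.0649) and passed under 6 of 14 alternatives. None of these genes overlapped between temperatures, but the warm arrays of AT2G18220 (ratio 3.71) and the chilled arrays of AT3G16840 (ratio 1.81) differed by more than the gap between temperatures.

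Of 3 measured factors of both subunits, AT3G18600 and AT5G65900 encode DEAD-box helicases related to yeast Has1. AT3G18600 had 1123 (A) and 1029 (B) at 22 °C and 6219 (A) and 7559 (B) at 4 °C, and rose by 2.64 ± 0.442 (limma adjusted p = 0.0341). AT5G65900 had 554.1 and 210.4 against 1078 and 1385, a log2 fold change of 1.73 ± 0.556 that did not pass (adjusted p = 0.106) and was 1.10 without 22 °C B. The copies thus had unlike replicate spreads at 22 °C, and the difference between their changes was not tested. AT2G27750, a homologue of surfeit locus protein 6 in human, had 4.12 and 10.7 at 22 °C and 40 and 89.5 at 4 °C, below the filter on mean signal.

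**Figure D2:**
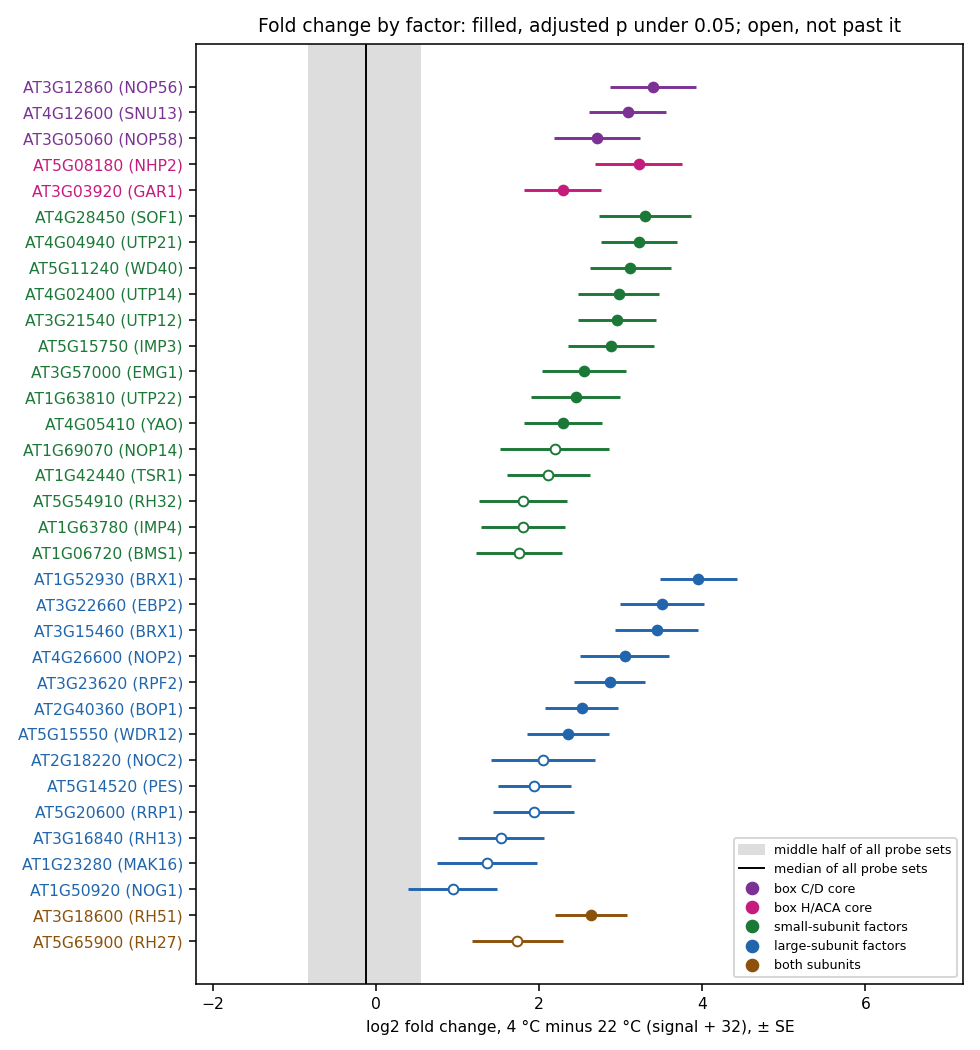
Log2 fold change with its SE for the 34 factors tested, ordered within each class, with filled points past an adjusted p of 0.05 in the limma fit of 4 arrays. The line and grey band are the median (-0.13) and the lower and upper quartiles (-0.82 and 0.54) of all 15847 probe sets, and every point lies to the right of the band.

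The classes overlapped in the size of their changes. The medians were 3.09 for the 3 box C/D proteins, 2.75 for the 2 box H/ACA proteins, 2.50 for 14 small-subunit factors, 2.36 for 13 large-subunit factors and 2.19 for the 2 shared helicases. The quartiles over all 34 factors were 1.97 and 3.08. Differences between classes were not tested. The smallest log2 fold change called among the factors was 2.29, and the SEs ran from 0.436 to 0.668.

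Array 22 °C B had lower signals of these factors than 22 °C A. On the log2 scale B was below A for 33 of the 34 tested, with a median difference of -0.77 and a range from -1.83 to 0.45. Over all probe sets B was below A for 52%, with a median of -0.05. At 4 °C the shift shared by the factors was smaller, with a median of B minus A of 0.28 and B higher for 26 of 34. Differences of both signs offset each other in that median, and they ran from -1.03 for AT5G08180 to 0.99 for AT1G63810. Over all probe sets the median at 4 °C was 0.05, and B was higher for 8440 of 15847. The part of this replicate difference in the results was not tested. The mean of the 4 °C arrays was compared with each warm array in turn. Against 22 °C A alone the median difference was 2.20 with a range from 0.33 to 3.66, and against 22 °C B alone it was 2.89 with a range from 1.54 to 4.24.

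**Figure D3:**
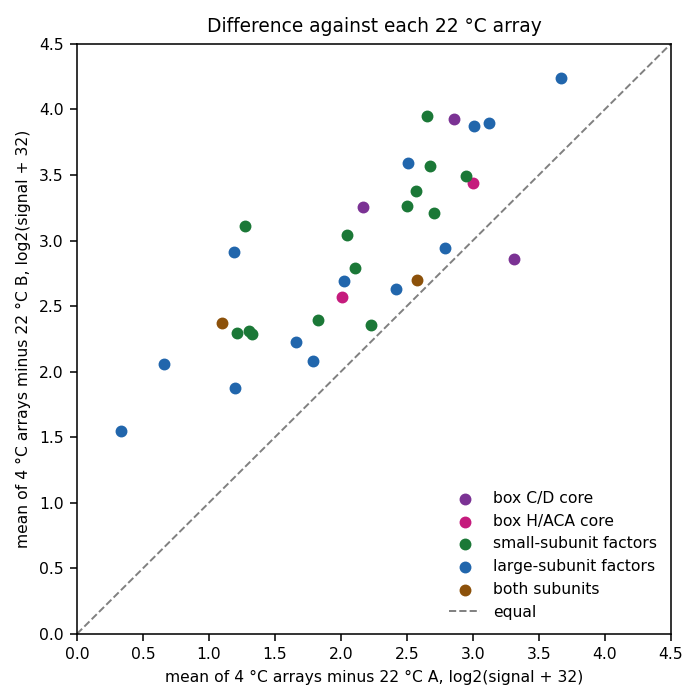
Mean of the 4 °C arrays minus 22 °C A (horizontal) and minus 22 °C B (vertical), both in log2(signal + 32), for the 34 factors tested, coloured by class. Points above the dashed line of equality have the larger difference against 22 °C B, and all but 1, the box C/D gene AT4G12600, lie above it.

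Leaving out an array moved the number of calls more than the fold changes. Without 22 °C A, 34 of 34 factors passed, against 9.76% of all probe sets called higher and 16.4% lower. Without 22 °C B 25 did, against 8.7% higher and 10.7% lower. Both sets of calls held the 22 called on all arrays. Without either 4 °C array 0 passed, with lowest adjusted p-values of 0.157 (without A) and 0.16 (without B), while 29 and 23 of the 34 were higher at an unadjusted p under 0.05, against 5.31% and 5.52% of all probe sets. Over all probe sets 0 were called higher and 1 lower in each of these fits. The spread then came from the 22 °C pair alone. The median log2 fold change stayed between 2.20 and 2.89. A pseudocount of 100 kept 14 of the 22 calls, against 0.877% of all probe sets called higher. Without a filter on low signal 0 of 36 factors passed (lowest limma adjusted p = 0.0551), against 0.0044% of all probe sets called higher. In that fit 33 were higher at an unadjusted p under 0.05, against 8.5% of all probe sets.

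Further genes of ribosome biogenesis came from lists of 54 loci outside the factors above. These lists too were chosen with results of these data known, so they give no independent support. Of 28 genes measured and tested, 15 passed the limma test as higher and 0 as lower, against 2.71% and 2.34% of all probe sets. All 28 had a log2 fold change above 0, against 44.7% of all probe sets. Of those 28, 24 had an unadjusted p under 0.05 and were higher, against 11.6%. Their median log2 fold change was 2.10, and in 26 of 28 the chilled arrays were both above the warm ones, against 25.7% of all probe sets. On 22 °C B 27 of the 28 were below 22 °C A. No gene of the nucleolar histone deacetylase list was measured.

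All 14 further small-subunit genes had a log2 fold change above 0, against 44.7% of all probe sets. Of these, 7 passed the limma test as higher, against 2.71%. The largest change was in AT3G10530, a homologue of Utp7, with 607.4 (A) and 218.6 (B) at 22 °C and 3911 (A) and 4500 (B) at 4 °C (3.40 in log2, limma adjusted p = 0.0341). AT3G06530, a homologue of the very large scaffold protein Utp10, rose by 3.06 (adjusted p = 0.0339), AT5G38720 (Rrp7) by 2.95 (adjusted p = 0.0383) and AT2G34357 (Rrp12) by 2.82 (adjusted p = 0.0452). The lowest value in this list was that of DIM1A, an adenosine dimethylase of the small-subunit RNA, with 2975 and 1770 against 3223 and 2582 (0.33, adjusted p = 0.721).

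All 10 further large-subunit genes had a log2 fold change above 0, against 44.7% of all probe sets. Of these, 7 passed the limma test as higher, against 2.71%. The largest change was in AT1G79150, a homologue of Noc3, which rose by 2.99 (limma adjusted p = 0.0395). Of its 2 single-gene probe sets, the one with the higher mean signal was used. AT2G44860 (Rlp24) rose by 2.73 (adjusted p = 0.0395), REBELOTE (RBL, AT3G55510), a Noc2-related gene, by 2.70 (adjusted p = 0.0375) and AT5G40530 (Rrp8) by 2.48 (adjusted p = 0.038). PRH75, a DEAD-box helicase, had 9054 (A) and 4017 (B) at 22 °C and 8267 (A) and 8822 (B) at 4 °C, so that its temperatures overlapped (0.50, adjusted p = 0.577). Of 4 genes of the RNA exosome, the complex that trims precursor RNA, AT5G38890, a homologue of Csl4, rose. It had 298.8 and 268 against 2896 and 2606 (3.14, adjusted p = 0.0317). The other 3 did not pass, with RRP41 at 790 and 436 against 2741 and 2481 (2.09, adjusted p = 0.0551).

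**Figure D4:**
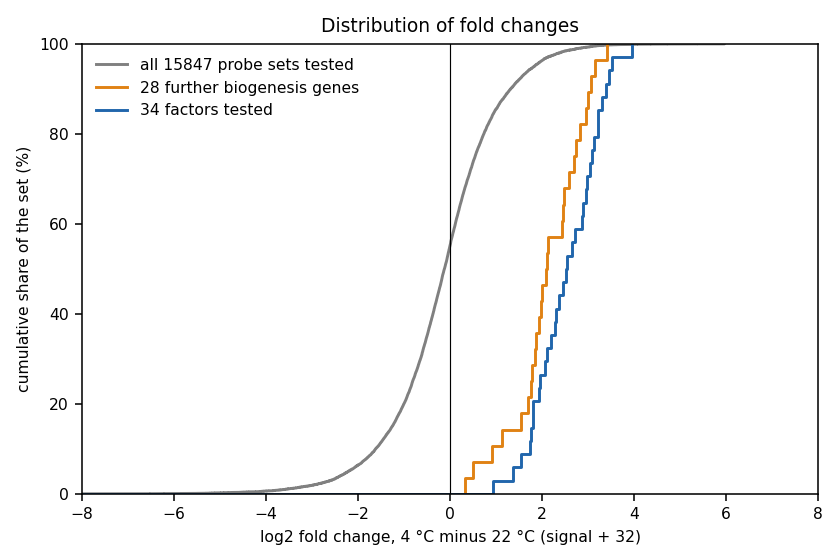
Cumulative share (%) of log2 fold changes, 4 °C minus 22 °C, for all 15847 probe sets tested (grey), 28 further biogenesis genes (orange) and the 34 factors (blue). All factors and all further genes lie to the right of 0, as do 44.7% of all probe sets.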

How the data were processed

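Each array holds 1 intensity per probe set. The authors deposited these intensities as linear signals from MAS5, a tool named without a version in the submitters' processing notes. No build, background step or detection call is stated in those notes. Each array was scaled to a 2% trimmed mean of 500, the 64 control probe sets were left out, and 15847 of 22746 others with a mean scaled signal of at least 64 were kept. Log2(signal + 32) was fitted with limma 3.58.1 in R 4.3.3 (lmFit, then eBayes with trend) on all 4 arrays without covariates. P-values were adjusted by Benjamini-Hochberg over all probe sets kept, and called at 0.05. The report prints signals after this scaling.

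Probe sets were matched to loci through the platform annotation and the RefSeq gene table of TAIR10.1, and each of the 36 genes had 1 single-gene probe set, none of a kind shared between genes by name. RefSeq gives most of these loci no product name, so roles and classes are background knowledge. The members, lists and classes were chosen with earlier results of these data known. Named genes are all factors past the threshold, the extremes of each class and gene copies, and up to 4 genes past the threshold in each further list or else the one with the largest value. The other factors are given with their values. Genes singled out beyond that (DIM1A, PRH75, RRP41, the tissue markers and the chromosomal neighbours) were chosen after their values were seen. Planned comparisons of promoter motifs and protein sequences were not run.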

Additional observations from a re-analysis of the deposited data

How the results depend on the processing

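Against 801 probe sets called (430 higher) and 22 factors called higher, the counts were 226 (139 higher) and 14 with a pseudocount of 100. They were 1266 (700 higher) and 25 with a filter at 200, which tests fewer probe sets, and 2 (1 higher) and 0 with no filter. With the letter as a replicate block they were 2879 (1256 higher, 1623 lower) and 31. No label states that A and B mark shared material, so the letters are only names. With 1 array left out the calls ranged from 1 to 4142 and the factors called higher from 0 to 34, and the lone array was assumed to vary like the other pair. Quantile normalization (22), median centring (25), the deposited scale (25) and a pseudocount of 0 (23) kept the number of factors called within 1.5 times. Robust estimation (22) and no variance trend (21) did so too. In that order 435, 669, 610, 514, 414 and 357 of all probe sets were called higher, against 430 in the main fit. On the deposited scale the same filter is stricter, so fewer probe sets were tested. The median of the shared class was 1.73 with no filter, where AT2G27750 enters it. Under these alternatives no log2 fold change of a factor changed sign, and the median over the factors ran from 2.20 to 2.89, while the median over all probe sets moved from -0.13 to 0.05 with quantile normalization. No factor had several single-gene probe sets, so averaging them gave nothing to compare. Signals near background limit AT5G08600 and AT2G27750.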

Other observations

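The genes next to the factors on the chromosome were looked at after the results were seen. Of the nearest protein-coding genes on either side in the RefSeq order, 23 outside all lists had a probe set that was tested. Their median log2 fold change (4 °C minus 22 °C) was -0.16, 8 of 23 were above 0, against 44.7% of all probe sets, and 0 were called higher and 2 lower, against 2.71% and 2.34%. With 23 genes, counts this small do not set them apart from all probe sets. AT3G15450, beside the Brx1 homologue AT3G15460, had 4203 (A) and 7532 (B) at 22 °C and 396.2 (A) and 270.9 (B) at 4 °C, and fell by 3.97 on the log2 scale (limma adjusted p = 0.0284). AT3G16850, beside the helicase gene AT3G16840, had 1256 and 1509 against 228.7 and 262.3, and fell by 2.35 (adjusted p = 0.0381). Other neighbours were higher at 4 °C without passing, and those with the largest log2 fold changes follow. AT4G28440, beside the Sof1 homologue AT4G28450, had 1478 and 1205 against 6007 and 4542 (log2 fold change 1.94, adjusted p = 0.0533). AT4G05400, beside YAO, had 229.6 and 331.1 against 1103 and 1179 (1.93, adjusted p = 0.054). AT3G05070, beside the Nop58 homologue AT3G05060, had 495.1 and 331.7 against 2329 and 990.2 (1.83, adjusted p = 0.096).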
